A study of Mus musculus with 8 samples.

Results

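The 34 genes described here encode voltage-gated calcium channel subunits and the proteins that store, release and remove calcium in heart muscle cells. They were chosen by name, and all 34 symbols were found among the 53465 genes of the deposited table. RNA came from the ventricles of mouse hearts at embryonic day 15.5. Of the libraries, 4 were wild type (WT) and 4 carried the label Nrg-1flox;Cdh5-CreERT2 (Flox). In the Flox line a Cre recombinase driven by the endothelial Cdh5 promoter, and active only after tamoxifen, is meant to delete the growth factor gene Nrg1 in endothelial cells. Each library came from 1 ventricle according to the series' design text, and the labels do not say whether WT embryos carried Cre or received tamoxifen. The comparison asked whether the lower level of the channel subunit gene Cacna2d2 in Flox libraries was shared by other genes of calcium handling.

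In a heartbeat, calcium enters the muscle cell through voltage-gated channels and opens the ryanodine receptor, which releases more calcium from the sarcoplasmic reticulum, the internal store. Relaxation follows when the pump SERCA2 returns calcium to the store and the sodium-calcium exchanger and plasma membrane pumps expel the rest. A channel consists of a pore (α1) with a β subunit inside the cell and an α2δ subunit outside, which helps to bring the pore to the cell surface. Embryonic ventricles use the same parts, with T-type channels more prominent than in the adult.

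The libraries were checked before the genes were compared. Library totals lay between 16761763 and 24144272 expected counts, and Flox library 4 was the smallest. The targeted gene Nrg1 had levels of 5.46, 4.64, 4.08 and 5.31 CPM (a gene's counts scaled to a common library total, adjusted for composition with TMM factors) in WT 1 to 4. In Flox 1 to 4 it was at 6.82, 6.33, 6.16 and 5.36 CPM. The level of Nrg1 was therefore not reduced under the Flox label (log2 fold change 0.34, SE 0.12, FDR 0.311), and every direction below refers to that label alone. Transcripts of female cells (Xist) and of the Y chromosome were found together at more than 20 counts in 7 of the 8 libraries. A single embryo of either sex would not give both, so how many embryos each library held is not known. The exception was WT library 4, with Xist at 0.18 CPM and the highest Y-linked sum (171 CPM). The 10 cardiomyocyte markers summed to between 49085 and 55721 CPM in every library.

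Of the 34 genes, 33 were abundant enough to be tested, and 1 passed a false discovery rate (FDR) of 0.05 in edgeR's quasi-likelihood test: Cacna2d2, which fell. Over all 15388 genes tested, 0.526% passed, 0.312% as higher and 0.214% as lower. The remaining 32 genes did not pass, and 30 of the 33 had a 95% confidence interval within 1.3-fold in either direction. Over all tested genes that share was 70.5%. The intervals of Cacna2d2, Cacna1d and Fkbp1b alone among the 33 reached beyond it. The median log2 fold change of the 33 genes was 0.01, with 14 lower and 19 higher, and 50.6% of all tested genes were lower. Every one of the other 32 intervals lay above -0.59, the log2 fold change of Cacna2d2, as did those of all but 1838 of the 15388 genes tested.

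**Figure D1:**
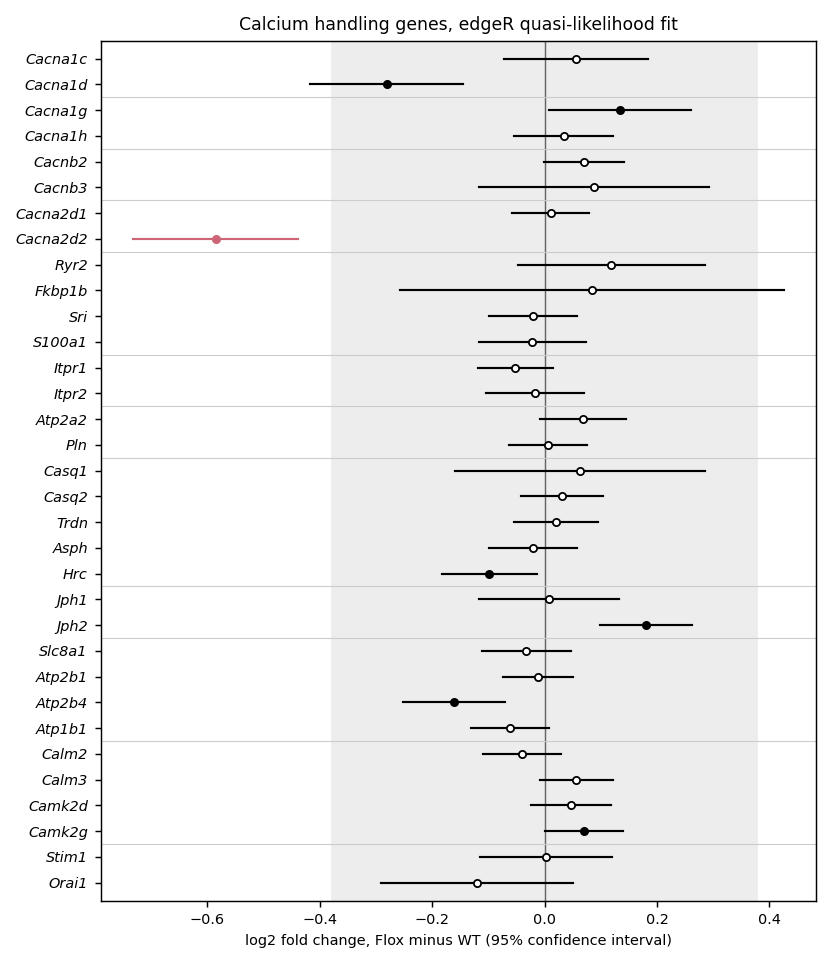
Log2 fold change of Flox over WT with its 95% confidence interval for the 33 tested calcium handling genes, ordered by role with lines between roles. Red marks the 1 gene with FDR below 0.05, filled points an unadjusted p below 0.05, and the shaded band a change of up to 1.3-fold. Cacna2d2 sits at -0.59, apart from the rest, which lie between -0.28 and 0.18.

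Among the 33 genes, 7 (21.2%) had an unadjusted p below 0.05, against 10.5% of all tested genes (5.13% higher and 5.41% lower). These were Cacna2d2, Cacna1d, Atp2b4 and Hrc on the lower side and Jph2, Cacna1g and Camk2g on the higher side. WT and Flox values were fully separate in 6 genes (18.2%), lower in Flox for Cacna2d2, Cacna1d, Atp2b4 and Hrc and higher for Jph2 and Calm3. Of all tested genes 6.05% were so separated, 2.98% lower and 3.07% higher. In all 7 genes with an unadjusted p below 0.05, Flox library 4 was the Flox library nearest to the WT mean. Flox library 4 also had the highest Y-linked sum (120 CPM) and the lowest Xist (103 CPM) of the Flox group, both within the WT range. The remaining Flox libraries had more Xist (263 to 327 CPM) than any WT library, where the maximum was 206 CPM. Their Y-linked sums (42.9 to 68.3 CPM) fell below the WT minimum of 69.3 CPM. The mix of female and male cells was therefore not balanced between the groups. A fit that also held the Y-linked sum called 16 genes over all, against 81 in the reported fit. Since that sum largely differed with the label, this fit cannot separate the part of the mix from that of the label. No other test of the mix was made.

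The α2δ subunit genes come first, because the only called member is among them. Cacna2d2 (chromosome 9, 107399612 to 107529343 on GRCm38) encodes α2δ-2, and Cacna2d1 (chromosome 5, 15934691 to 16374511) encodes α2δ-1. The start regions of these genes are shown because they are the pair that fills this subunit class in the ventricle and only one of them differed. Each window runs from 250 bases before to 50 bases after the RefSeq transcription start on GRCm38.p6, read 5′ to 3′ on the plus strand. Capitals mark GC boxes, GGGCGG on either strand.

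Cacna2d2 (chr9:107399630-107399929): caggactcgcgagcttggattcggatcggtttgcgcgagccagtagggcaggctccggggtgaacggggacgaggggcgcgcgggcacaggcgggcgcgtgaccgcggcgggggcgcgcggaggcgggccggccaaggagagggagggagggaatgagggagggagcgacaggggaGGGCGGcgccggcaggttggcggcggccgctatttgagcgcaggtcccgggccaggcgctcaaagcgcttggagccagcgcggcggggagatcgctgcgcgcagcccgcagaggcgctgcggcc
Cacna2d1 (chr5:15934441-15934740): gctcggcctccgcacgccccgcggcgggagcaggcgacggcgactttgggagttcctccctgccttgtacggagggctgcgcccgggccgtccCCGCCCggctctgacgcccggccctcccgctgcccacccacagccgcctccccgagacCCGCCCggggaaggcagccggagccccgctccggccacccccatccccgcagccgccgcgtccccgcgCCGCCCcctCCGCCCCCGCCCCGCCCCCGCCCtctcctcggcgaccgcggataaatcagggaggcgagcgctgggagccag

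The windows were alike in base composition, with 75.7% G and C and 43 CG pairs for Cacna2d2 and 80.0% and 42 for Cacna2d1. Cacna2d2 held 1 GC box and Cacna2d1 held 7, some of them overlapping, and 35.7% of the 32851 promoter windows of the mouse held at least 1. CCAAT (in 37.4% of windows), TATAAA (13.6%), AGATAA (11.2%) and CAGCTG (16.3%), each searched on either strand, were found in neither of the pair. A window was given for 25 of the 34 genes.

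Levels of Cacna2d2 were 51.8, 54.0, 50.9 and 58.8 CPM in WT libraries 1 to 4 and 31.9, 38.3, 33.5 and 40.1 CPM in Flox libraries 1 to 4. Every Flox library was below every WT library, with 10.8 CPM between the nearest pair. On the log2 scale the gene changed by -0.59 (SE 0.0679, 95% confidence interval -0.73 to -0.44, FDR 0.0059), and its mean level fell by 33.3%. This p was the third smallest of all genes tested. FDR stayed below 0.05 in each of 21 alternative settings (other scalings, filters, tests, covariates and left-out libraries), where the log2 fold change ranged from -0.64 to -0.53. The smallest change and the highest FDR (0.0387) both came from the fit that also held the Y-linked sum. Its expected counts were not whole numbers (within a tolerance of 0.001) in 87.5% of libraries, as arises when reads match several genes.

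Cacna2d1 was at 88.4, 84.4, 82.7 and 84.8 CPM in WT libraries and at 84.4, 87.0, 88.1 and 83.2 CPM in Flox libraries. The groups overlapped fully, and the log2 fold change was 0.01 (95% confidence interval -0.06 to 0.08, FDR 0.952). Cacna2d3 held 2 to 10 counts per library and was left out of the test. WT libraries had 0.09, 0.40, 0.26 and 0.09 CPM and Flox libraries 0.25, 0.42, 0.28 and 0.35 CPM, close to the level that 3 counts represent (0.13 to 0.18 CPM).

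Per exonic length, Cacna2d1 and Cacna2d2 were about equally abundant in WT ventricles, at 6.85 and 6.78 CPM per kilobase of exon. Before division by length their WT means were 85.1 and 53.9 CPM. The lengths (12416 and 7947 bases) count all annotated exons of a gene, so the near-equality and the shares below depend on the annotation. Cacna2d2 made up 47.8%, 49.8%, 48.9% and 52.0% of the summed α2δ level in WT libraries 1 to 4. In Flox libraries 1 to 4 its share was 37.1%, 40.6%, 37.2% and 42.8%, below every WT value. The summed level of the α2δ genes was 13.7 ± 0.468 in WT and 11.5 ± 0.474 in Flox libraries (SD, n = 4 each). These shares rest on the same counts as the fall of Cacna2d2 and are a description.

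**Figure D2:**
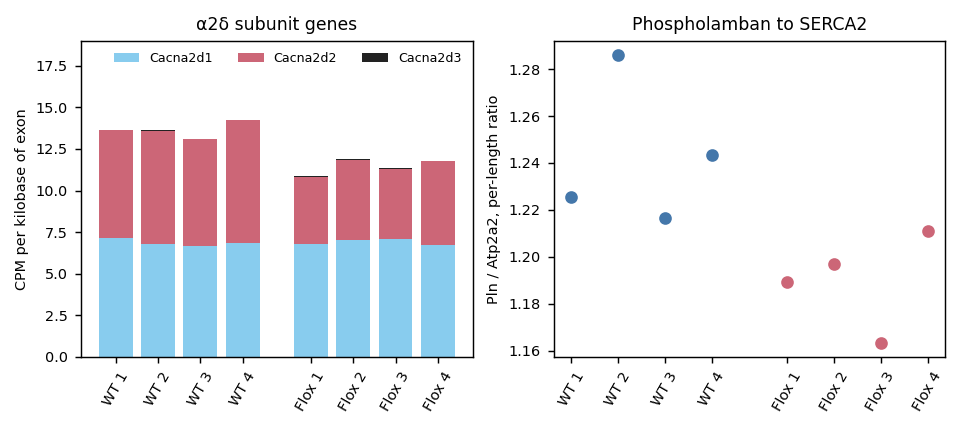
Left, level of the α2δ genes in each library in CPM per kilobase of exon, stacked from 0: the Cacna2d2 part is smaller in the 4 Flox libraries and the Cacna2d1 part alike in all 8. Right, ratio of Pln to Atp2a2 per length in each library (axis not from 0): Flox libraries sit between 1.16 and 1.21, WT libraries between 1.22 and 1.29.

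Of the 4 pore genes, 0 passed the threshold. The main L-type pore of the working heart, Cacna1c, was at 265, 236, 271 and 264 CPM in WT and at 281, 270, 289 and 237 CPM in Flox libraries. Flox libraries 1 and 3 were above every WT library and the other 2 lay within the WT range, with a log2 fold change of 0.06 (95% confidence interval -0.07 to 0.18, FDR 0.818). Its value moved with single libraries, from 0.01 without WT library 2 to 0.11 without Flox library 4. The other L-type pore, Cacna1d, best known from the sinoatrial node and atria, was 9.73-fold scarcer per length, at 1.28 against 12.5 CPM per kilobase.

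Cacna1d was at 17.2, 17.8, 18.4 and 17.5 CPM in WT and at 13.8, 14.8, 14.0 and 15.9 CPM in Flox libraries. The groups did not overlap, yet the log2 fold change of -0.28 (SE 0.063, 95% confidence interval -0.42 to -0.14) missed the threshold (FDR 0.0744). It passed without Flox library 4, at -0.32 (FDR 0.0424). A fit that also held the Y-linked sum gave -0.25 (FDR 0.346). Cacna1d rested on 271 to 424 counts per library, not whole in any library by the same tolerance.

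The T-type pore genes, Cacna1g and Cacna1h, were at 4.91 and 10.1 CPM per kilobase. Cacna1g was at 48.9, 42.0, 49.1 and 49.9 CPM in WT and at 51.4, 50.6, 56.9 and 49.3 CPM in Flox libraries. WT library 2 was low and the rest of the groups overlapped (log2 fold change 0.13, SE 0.0584, FDR 0.441). Without WT library 2 the value was 0.08. Cacna1h, at 97.9 ± 1.12 CPM in WT and 100.3 ± 6.44 CPM in Flox libraries (SD, n = 4), had a log2 fold change of 0.03. The β subunit genes Cacnb2 (0.07, FDR 0.488) and Cacnb3 (0.09, FDR 0.818) did not pass either.

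The store itself was described by its pump, its release channel and its buffers. Atp2a2, which encodes SERCA2, was at 2945, 2855, 3017 and 2854 CPM in WT and at 3111, 3184, 3105 and 2835 CPM in Flox libraries. Flox libraries 1 to 3 were above every WT library and Flox library 4 below them all, giving a log2 fold change of 0.07 (95% confidence interval -0.01 to 0.14, FDR 0.540). Pln, encoding phospholamban, the inhibitor of SERCA2, was at 1638, 1666, 1665 and 1610 CPM in WT and at 1679, 1729, 1639 and 1558 CPM in Flox libraries. It did not differ beyond the spread (log2 fold change 0.01, 95% confidence interval -0.06 to 0.08, FDR 0.976).

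Per length, Pln (597 CPM per kilobase) and Atp2a2 (491) were the most abundant of the 34 genes, followed by Casq2 (328). The ratio of Pln to Atp2a2 per length was 1.24 ± 0.0309 in WT and 1.19 ± 0.02 in Flox libraries (SD, n = 4), and the groups did not overlap. They were only narrowly apart, at 1.216 in WT library 3 and 1.211 in Flox library 4. No test was made of this ratio, and neither gene passed alone. A gene model, Gm47644, covers 59.6% of the Pln exons on the opposite strand with a mean of 96.8 counts, against 35517 for Pln. Since it is not stated whether counting used strand, a small part of the Pln counts is uncertain.

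Ryr2, the cardiac ryanodine receptor, was at 635, 514, 666 and 598 CPM in WT and at 704, 674, 677 and 566 CPM in Flox libraries. Spread within each group was wide, and the log2 fold change of 0.12 (95% confidence interval -0.05 to 0.29) did not pass (FDR 0.642). Without WT library 2, the lowest of its group, it was 0.05, and without Flox library 4 it was 0.18. Of the proteins that bind the receptor, Fkbp1b (0.08), Sri (-0.02) and S100a1 (-0.02) differed by less than their spread. Fkbp1b held only 42 to 88 counts per library, and its 95% interval of -0.26 to 0.43 left room for a change above 1.3-fold. The inositol trisphosphate receptor genes Itpr1 (-0.05) and Itpr2 (-0.02) likewise did not pass.

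Casq2, the cardiac calsequestrin that buffers calcium inside the store, was at 890, 843, 891 and 924 CPM in WT and at 914, 936, 881 and 893 CPM in Flox libraries, with a log2 fold change of 0.03 (FDR 0.822). Casq1, calsequestrin of skeletal muscle, was at 172, 158, 182 and 214 CPM in WT and at 177, 181, 167 and 233 CPM in Flox libraries. Library 4 was the highest of either group, and without Flox library 4 the log2 fold change went from 0.06 to -0.05. With the Y-linked covariate it was 0.29 (FDR 0.173). Per length Casq1 stood at 95.02 CPM per kilobase, within 3.45-fold of Casq2. Of 8 skeletal muscle markers, the regulators Myod1 and Myf5 were at 0 counts in all 8 libraries, which allows up to 0.18 CPM, and Myog lay between 0.17 and 0.70 CPM. Other members of the list were found in every library. Myh8 was at 3.24 to 5.58 CPM and Mylpf at 2.42 to 3.45 CPM. Tnnt3 was at 1.12 to 2.11 CPM and Myh3 at 0.31 to 0.96 CPM. The list summed to 1342 to 1662 CPM in WT and 1395 to 1791 CPM in Flox libraries, nearly all of it Ckm, which heart muscle also expresses.

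Trdn (0.02) and Asph (-0.02), which encode proteins that tie calsequestrin to the release channel, did not differ beyond the spread. Counts are per gene and do not separate the different products of a gene. Hrc, a histidine-rich calcium buffer of the same complex, was at 118, 123, 114 and 115 CPM in WT and at 110, 112, 102 and 114 CPM in Flox libraries. The groups were apart by only 0.26 CPM, between WT library 3 and Flox library 4. This gave -0.10 on the log2 scale (SE 0.039, 95% confidence interval -0.18 to -0.01, FDR 0.390).

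Junctophilins hold the cell surface close to the store, so that channel and release receptor face each other. Jph2, the cardiac form, was at 360, 330, 362 and 351 CPM in WT and at 406, 391, 412 and 381 CPM in Flox libraries. All Flox libraries were above all WT libraries, and the log2 fold change of 0.18 (SE 0.0378, 95% confidence interval 0.10 to 0.26) missed the threshold (FDR 0.0597). Jph2 passed in 6 of the 21 alternatives, among them DESeq2 (FDR 0.00028) and the fit without Flox library 4 (0.20, FDR 0.0364). It did not pass with the Y-linked covariate (0.19, FDR 0.206) or after correction for GC content and length (0.15, FDR 0.108). Jph1, the skeletal muscle form, was 21.9-fold scarcer per length and did not differ (0.01, FDR 0.983).

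**Figure D3:**
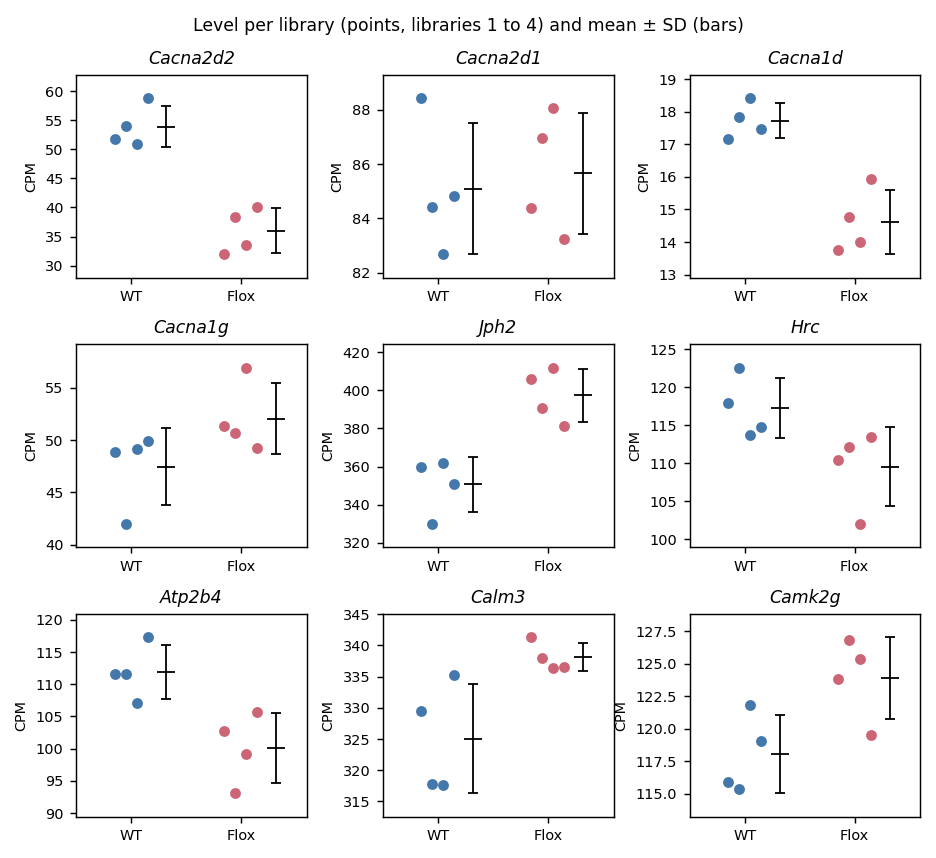
Level in CPM of 9 genes in each WT and Flox library (points, libraries 1 to 4 from left to right) with the mean ± SD of each group beside them. Axes do not start at 0. Cacna2d2, Cacna1d, Jph2, Hrc, Atp2b4 and Calm3 have no overlap between groups, and Flox library 4 lies nearest to WT in Cacna2d2, Cacna1d, Cacna1g, Jph2, Hrc, Atp2b4 and Camk2g.

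None of the 4 genes grouped with removal of calcium across the cell membrane passed, with log2 fold changes between -0.16 and -0.01. Atp1b1 among them belongs to the sodium pump, which does not itself carry calcium. The sodium-calcium exchanger Slc8a1 was at 625, 581, 615 and 601 CPM in WT and at 617, 581, 606 and 562 CPM in Flox libraries (log2 fold change -0.03, 95% confidence interval -0.11 to 0.05, FDR 0.828). Atp2b4, a plasma membrane calcium pump, was at 112, 112, 107 and 117 CPM in WT and at 103, 93.1, 99.2 and 106 CPM in Flox libraries. The nearest values of the groups were 107.1 and 105.6 CPM, with a log2 fold change of -0.16 (SE 0.0418, 95% confidence interval -0.25 to -0.07, FDR 0.130). With the Y-linked covariate it was -0.10 (FDR 0.501). The other pump, Atp2b1 (-0.01), and the sodium pump subunit Atp1b1 (-0.06) had intervals within 1.3-fold.

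Calmodulin is the calcium sensor of the cell, and Calm2 and Calm3 are among the genes that encode it. Calm3 was at 330, 318, 318 and 335 CPM in WT and at 341, 338, 336 and 337 CPM in Flox libraries, without overlap but only 1.16 CPM apart (log2 fold change 0.06, FDR 0.553). Calm2 was at -0.04. Of the calmodulin-dependent kinase genes, Camk2g was at 116, 115, 122 and 119 CPM in WT and at 124, 127, 125 and 119 CPM in Flox libraries, and the groups overlapped (0.07, SE 0.0319, FDR 0.465). Camk2d, the main cardiac form, was at 0.05. The store-operated entry genes Stim1, the store sensor, and Orai1, its channel, were at 0.00 and -0.12 (FDR 0.996 and 0.648).

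**Figure D4:**
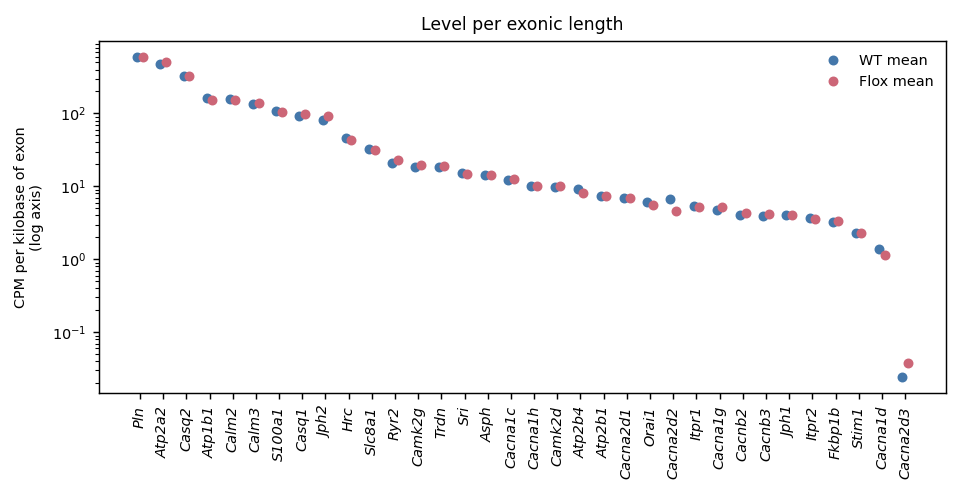
Mean level per exonic length, in CPM per kilobase of exon on a log axis, of the 34 genes in WT (blue) and Flox (red) libraries, ordered from the most to the least abundant. Pln and Atp2a2 lead at 597 and 491, Cacna1d (1.28) and Cacna2d3 (0.031) are the scarcest, and WT and Flox points lie close together except for Cacna2d2 and the barely detected Cacna2d3.

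A further 67 genes of calcium handling were examined for context, of which 61 were tested. None passed in edgeR's quasi-likelihood test or in DESeq2, while edgeR's likelihood ratio test called 2 (Atp1b2 and Cacna1e). An unadjusted p below 0.05 was found for 8 of the 61 (13.1%), against 10.5% of all tested genes. The 5 with the smallest p were Atp1b2, Cacna1e, Cacng4, Smdt1 and Rrad. Atp1b2, a sodium pump subunit, went from 55.6 ± 3.07 CPM in WT to 48.9 ± 1.9 CPM in Flox libraries (SD, n = 4; log2 fold change -0.18, FDR 0.0967). Cacna1e, the R-type pore, averaged 1.10 ± 0.307 CPM in WT and 2.13 ± 0.37 CPM in Flox libraries, on 18 to 57 counts per library (0.95, FDR 0.1002). Cacng4, a channel γ subunit, had means of 2.04 ± 0.273 in WT and 1.32 ± 0.311 CPM in Flox (-0.64, FDR 0.259). Smdt1, of the mitochondrial calcium uniporter, was at 0.11 (FDR 0.278), and Rrad, an inhibitor of L-type channels, at 0.14 (FDR 0.366).

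Markers of other regions and cell types were read beside these results. Of 8 atrial markers, 8 were lower in Flox libraries with a median log2 fold change of -0.22, and Kcnj3 and Clu passed. Their sum was 1757 to 1992 CPM in WT and 1726 to 1881 CPM in Flox libraries, and Sln, the most restricted to atria, was at 7.64 and 5.67 CPM. Of 9 trabecular and conduction markers, 8 were lower (median -0.19) and Etv1 passed, with sums of 2038 to 2959 CPM in WT and 1861 to 2672 CPM in Flox libraries. Most of these sums was Nppa, with means of 1992 CPM in WT and 1766 CPM in Flox libraries. The largest falls were those of Slit2 (-0.57, FDR 0.0720) and Bmp10 (-0.55, FDR 0.0606), near that of Cacna2d2, while Irx1 was higher (0.15, FDR 0.462). The cardiomyocyte list was divided evenly, with 5 of 10 lower and a median of 0.00. Of 12 endothelial markers 10 were lower (median -0.07, sums of 1618 to 1681 and 1508 to 1641 CPM) and 0 passed. The nerve and Schwann list was near its limit, with sums of 7.98 to 9.24 CPM over all libraries and 3 of 8 markers below 0.1 CPM on average. In whole ventricles fewer cells of a type and less RNA per cell cannot be told apart, and the part of these markers in the fall of Cacna2d2 was not tested.

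**Figure D5:**
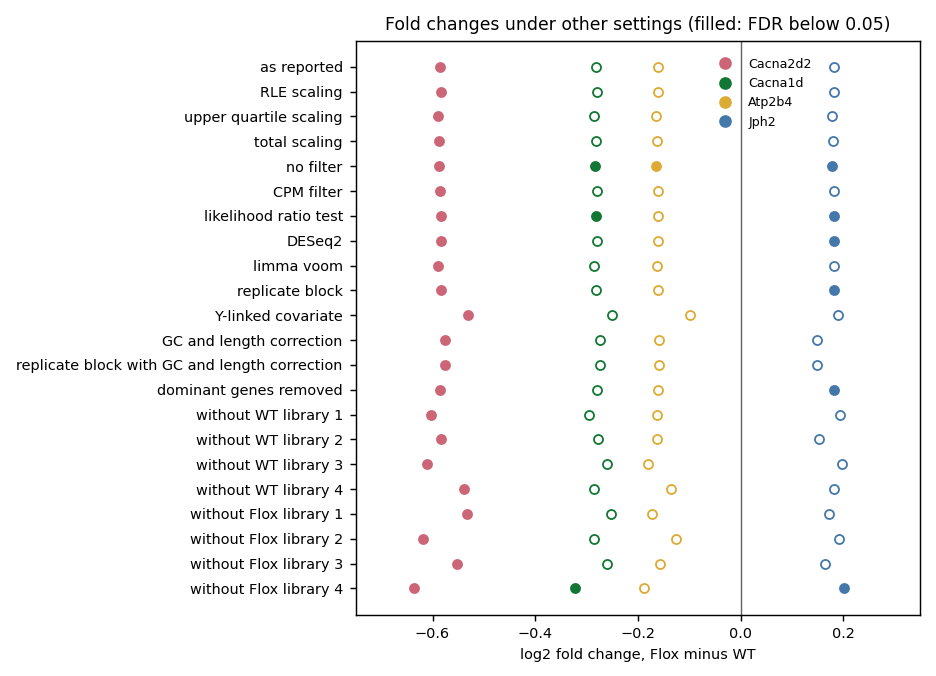
Log2 fold change of Cacna2d2, Cacna1d, Atp2b4 and Jph2 (Flox minus WT) as reported and under 21 other settings, with filled points where FDR was below 0.05. Cacna2d2 is filled throughout, between -0.64 and -0.53, whereas Cacna1d passes in 3, Jph2 in 6 and Atp2b4 in 1 of the 21.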

How the data were processed

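Poly(A) RNA from mouse ventricles was sequenced in 8 directional single-read libraries. Per the labels, reads were trimmed with cutadapt and quantified with RSEM 1.3.1 on GRCm38. The authors used RSEM to make the deposited values, which are estimated counts per Ensembl gene (release 91 by the table's name), in which reads matching several genes are divided, and 18.1% of values were not whole within a tolerance of 0.001. The aligner and strand setting are not given in the sources used here.

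The deposited expected counts were rounded, filtered with filterByExpr (15388 genes), scaled with TMM factors and compared with edgeR 4.0.16 (glmQLFit, glmQLFTest, two-sided, group only, R 4.3.3). P-values were Benjamini-Hochberg adjusted over all tested genes (FDR 0.05). SE and intervals come from the F statistic. Symbols and exonic lengths were from GENCODE M21 (53360 of 53465 identifiers matched), promoter sequences from RefSeq. Exonic length merges all annotated exons of a gene, so per-length comparisons between genes depend on the annotation. Fits were tested on simulated data. No label ties libraries to separate embryos, so p-values measure the spread between these libraries, which differed by more than sampling noise (chi-square per degree of freedom at least 3.00).

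The genes and lists were chosen with earlier results of these data known. Values in every library are given for genes with FDR or unadjusted p below 0.05 and for 9 core genes (Cacna1c, the α2δ genes, Ryr2, Atp2a2, Pln, Casq2 and Slc8a1). Calm3 and Casq1 were added after their values were seen. Of the 67 further calcium genes, the 5 with the smallest p were named. Other lists read were fibroblast (6 of 8 lower, median -0.06), smooth muscle (4 of 6, -0.12), macrophage (3 of 7, 0.01) and erythroid markers (1 of 8, 0.12), with 0 called. The smooth muscle sum, most of it Acta2 (log2 fold change 0.12), went the other way from its median. It was 1743.45 to 1821.95 CPM in WT and 1821.75 to 1907.69 CPM in Flox libraries. The alternatives used DESeq2 1.42.0 and limma 3.58.1 among others. Plots used matplotlib 3.10.9 (Python 3.11.15).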

Additional observations from a re-analysis of the deposited data

Results flagged for a closer look

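In 3 of 80 groups of 4 values, 1 library lay far from the other 3, where chance gives about 4. WT library 2 had 42.0 CPM of Cacna1g, whereas the other WT libraries had 48.9 to 49.9 CPM, and without it the log2 fold change went from 0.13 to 0.08. Cacnb3 was at 20.7 CPM in Flox library 4, against 15.2 to 16.1 CPM, and without that library its log2 fold change went from 0.09 to -0.02. Trdn was at 165 CPM in Flox library 4, against 179 to 180 CPM, and without it the log2 fold change was 0.05.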

How the results depend on the processing

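Cacna2d2 kept FDR below 0.05 in all 21 alternatives, and Nrg1 was higher and did not pass in any (0.27 to 0.40). The causes of the shifts below were not tested. Of the 34 genes, 4 were called without a filter on low counts (adding Cacna1d, Jph2 and Atp2b4), 3 by the likelihood ratio test and at FDR 0.1 (adding Cacna1d and Jph2), and 2 by DESeq2 or without globin, mitochondrial, Xist and Y-linked genes (adding Jph2). Over all genes the count of 81 became 338, 242, 190 (at FDR 0.1), 182 (DESeq2), 16 with the Y-linked covariate and 3 at FDR 0.01. Of the further calcium genes 2 were called without a filter and by the likelihood ratio test, and 1 at FDR 0.1. Leaving out 1 library gave 1 to 3 called members, 11 (without Flox library 3) to 142 (without Flox library 4) called genes, each of the 8 omissions moving that count by over 1.5 times, and 0 called further genes in each fit.

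With the replicate number as a block, 2 members (Cacna2d2 and Jph2, FDR 0.0401), 93 genes and 0 further genes were called, and with GC and length corrected as well 1, 73 and 0. Deviations of same-numbered libraries correlated at 0.0447 to 0.121, each above the differently numbered pairs (-0.0877 to 0.0195). Not all were over the threshold of 0.1 used for pairing, and the reported fit held no block. Missing that threshold does not show that the libraries share only a number, and what they may share was not tested.

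Signs turned only in members with a reported log2 fold change from -0.02 (S100a1) to 0.09 (Cacnb3). With the Y-linked covariate these were Cacna2d1 (-0.00997), Fkbp1b (-0.035), Sri (0.031), Pln (-0.047), Trdn (-0.013), Asph (0.0018), Camk2d (-0.0014) and Stim1 (-0.052). After GC and length correction Pln was at -0.0027, and with the block added at -0.0035. Stim1 was at -0.0025 with upper quartile scaling, -0.00047 with total scaling and -0.00088 without a filter. Without 1 library the ranges were -0.0095 to 0.057 (Cacna1h), -0.018 to 0.135 (Cacnb3), -0.0029 to 0.029 (Cacna2d1), -0.0089 to 0.204 (Fkbp1b), -0.064 to 0.012 (S100a1), -0.040 to 0.0054 (Itpr2), -0.015 to 0.033 (Pln), -0.051 to 0.154 (Casq1), -0.045 to 0.000068 (Asph), -0.019 to 0.039 (Jph1), -0.024 to 0.00030 (Atp2b1) and -0.018 to 0.042 (Stim1). Genes with few counts, such as Fkbp1b, Cacna2d3 and Cacna1e, are limited by depth.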
